A study of Mus musculus with 11 samples.

Results

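Integrins, laminins, cadherins and claudins are 4 families that hold epithelial cells to each other and to their basement membrane. They were taken here as every probe set annotated to 1 gene whose symbol names an integrin alpha or beta chain, a laminin chain, a numbered cadherin or a numbered claudin. This gave 73 probe sets for 49 of the 8251 genes with such a probe set on the array, made up of 30 probe sets for 18 integrin genes, 14 for 9 laminin genes, 17 for 13 cadherin genes and 12 for 9 claudin genes. The rule rests on gene symbols alone.

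PN1a (hyperplasia I in the labels) and PN1b (hyperplasia 2) are preneoplastic lines of Trp53-/- Balb/c mammary epithelium, grown from contralateral outgrowths of the same mouse and kept by serial transplantation into fat pads, cleared of their own epithelium, of wildtype female Balb/c mice that were 3 weeks old. Each line is therefore a single outgrowth, p53 is absent from the epithelium of both, and the stroma, vessels and immune cells of the glands belong to the wildtype host. PN1a lesions have a high and PN1b lesions a low potential to form tumors, and the study asked which genes accompany the step to invasive cancer. RNA of whole glands was measured 8 weeks after transplantation, on 1 Affymetrix MG_U74Av2 array for each of 5 PN1a and 6 PN1b samples.

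Integrins are heterodimers of an alpha and a beta chain that bind matrix proteins or other cells, and several of them are laminin receptors. Laminins are trimers of an alpha, a beta and a gamma chain and form the sheet of the basement membrane, on which the basal and myoepithelial cells of the mammary duct sit. Classical cadherins join neighbouring cells through catenins at adherens junctions, and claudins seal the space between luminal cells at tight junctions. In bulk tissue, fewer cells of a type and less RNA per cell cannot be told apart.

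Levels are log2 of the deposited intensity, differences are PN1a minus PN1b, and "called" means at least 1.5-fold with an adjusted p under 0.05 (limma, Benjamini-Hochberg over all probe sets). Levels are compared only within a probe set, since probe sets differ in their response. Over all 12422 probe sets tested, 108 (0.869%) were called higher in PN1a and 201 (1.62%) lower, and with each sample centred on its median these counts were 155 and 186. All PN1a samples and PN1b 5 and 6 share 1 ending of their sample titles, PN1b 1, 3 and 4 share a second and PN1b 2 has one of its own. What the endings stand for is not given in the labels, and the first alone allows a comparison of 5 against 2 samples. Samples PN1a 1 and PN1a 2 lay away from the rest, so values are also given without them. The titles of PN1a 1 and PN1a 2 begin with a number, while those of PN1a 3, 4 and 5 begin with the line and a letter. What this difference in titles stands for is not given either. PN1b 1 to 4 have titles that read as ranges of numbers, and whether these samples are pools is not stated. The numbers of the samples only name them. Markers of both epithelial layers were measured (11 of 12 luminal and 9 of 10 basal and myoepithelial genes), as were 9 of 9 endothelial, 8 of 8 fibroblast, 12 of 12 macrophage, 16 of 19 T, NK and B cell, 6 of 8 adipocyte and 7 of 7 skeletal muscle markers.

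No probe set of the 4 families was called in either direction. At an unadjusted p under 0.05 in limma, 4 of 73 were higher and 12 lower in PN1a, beside 7.65% and 11.3% of all probe sets, so that 21.9% of the members and 18.9% of all probe sets passed that level. Two-sided t-tests as in the methods of the study, with an unadjusted p under 0.01 and 1.5-fold, passed Lamb1 alone (1 of 73, lower). Of all 12422 probe sets the same tests passed 271 higher and 442 lower. The groups did not overlap in 2 members that were lower in PN1a (Lama2 and 1 of the probe sets of Cldn3) and in none that was higher, while 1.58% of all probe sets were separately higher and 2.38% separately lower. To be called, a member needed a difference of 1.15 on the log2 scale at the median (0.67 to 2.68), and smaller differences could not be called with these samples.

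The families lay in different places. All 12 claudin probe sets were lower in PN1a (median difference -0.77), as were 12 of 14 laminin probe sets (median -0.46). The integrins were spread to both sides of 0, with 11 of 30 lower and a median of 0.21, and so were the cadherins, with 8 of 17 lower and a median of 0.04. Over all probe sets 51.4% were lower and the median was -0.01. With log2(value + 16) the medians were smaller in size, at -0.37 for claudins, -0.29 for laminins, 0.04 for integrins and 0.01 for cadherins. The families' shares are descriptions, since genes of a family share samples and are not independent.

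**Figure D1:**
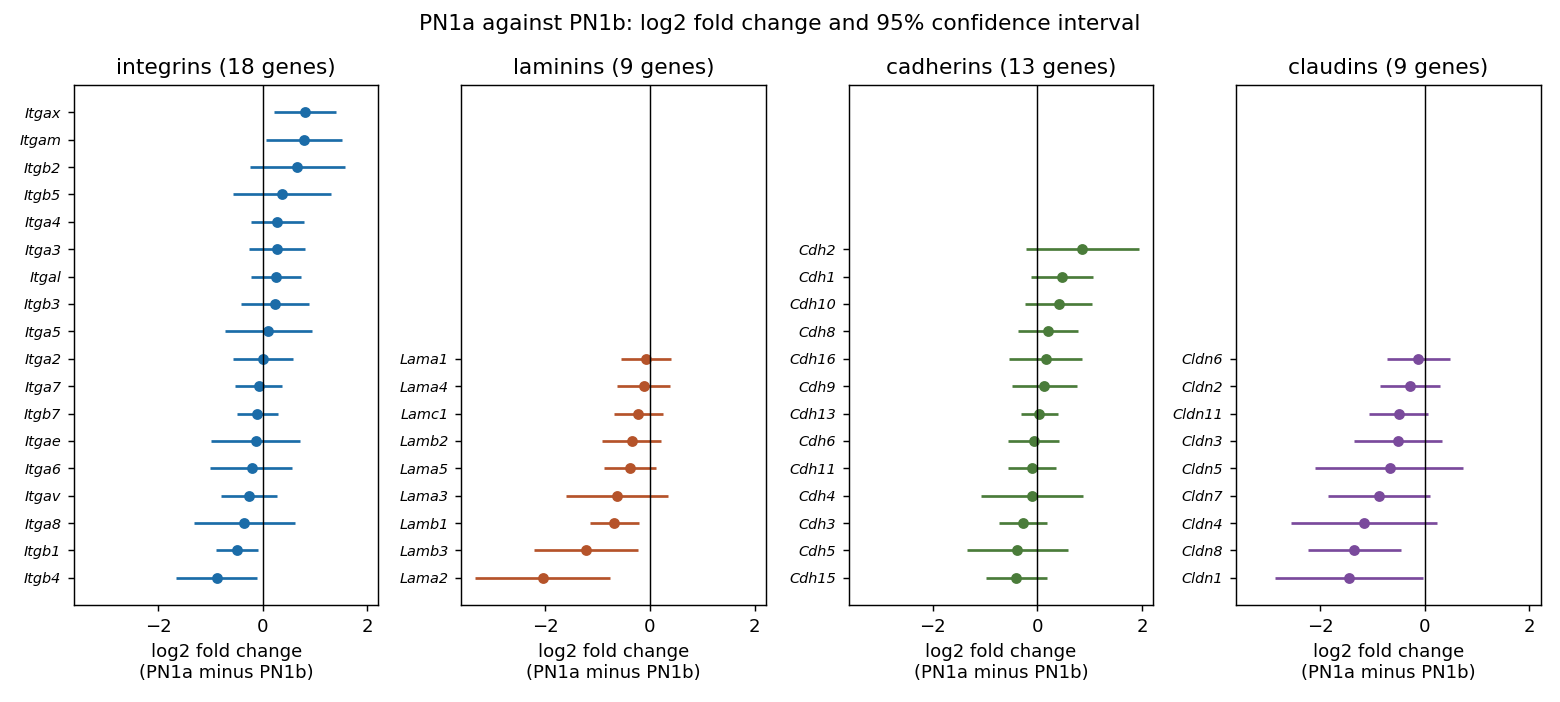
Log2 fold change of each member gene (PN1a minus PN1b, horizontal axis) with its 95% confidence interval from limma, 1 probe set per gene (the one with the highest mean), in a panel per family. All 9 laminin and all 9 claudin genes lie below 0, while integrin and cadherin genes lie on both sides.

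The laminins were the family with the lowest member. Lama2, the alpha chain of the laminin of muscle, nerve and mesenchymal basement membranes, lay at 2.61, 2.98, 5.70, 5.73 and 6.34 in PN1a and at 6.45 to 6.91 in PN1b (median 6.75). Every PN1a sample was below every PN1b sample, and PN1a 1 and PN1a 2 were far below the rest. The difference was -2.05 (SE 0.60, 95% confidence interval -3.34 to -0.77, adjusted p = 0.0834 from limma), short of a call. It was -2.20 within the first title ending and -0.80 without PN1a 1 and PN1a 2 (adjusted p = 0.0924 from limma), and it passed in limma only when PN1a 5 was left out (adjusted p = 0.0385).

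Lamb1, a beta chain of many basement membranes, lay at 5.08, 4.01, 4.21, 4.33 and 4.60 in PN1a and at 4.81 to 5.46 in PN1b (median 5.11). PN1a 1 alone reached the PN1b range. The difference of -0.68 (SE 0.22, interval -1.14 to -0.21, adjusted p = 0.109 from limma) changed little in parts of the samples, with -0.65 within the first title ending and -0.74 without PN1a 1 and PN1a 2. A further probe set of Lamb1 gave -0.54 (interval -1.16 to 0.07).

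Lamb3, the beta chain of the laminin that anchors hemidesmosomes of basal epithelium, lay at 3.85, 5.34, 5.81, 5.46 and 3.99 in PN1a. In PN1b it ran from 4.92 to 7.0 (median 6.32), but PN1b 5 and PN1b 6 lay at 4.92 and 5.23, inside the PN1a range. The difference was -1.22 (interval -2.21 to -0.23, adjusted p = 0.167 from limma), and -1.57 in a second probe set (adjusted p = 0.115 from limma). Within the first title ending these were -0.19 and -0.70, so most of the Lamb3 difference lay between PN1a and the PN1b samples of the other endings.

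Lama3, the alpha chain of the same hemidesmosomal laminin, gave -0.63 (interval -1.60 to 0.34) over all samples and 0.23 within the first ending. Without PN1a 1 and PN1a 2 it was -0.10, while the first Lamb3 probe set was at -1.02 there. Lama5, the alpha chain of most adult epithelial basement membranes, gave -0.38 (interval -0.87 to 0.11) and in its second probe set -0.60 (interval -1.12 to -0.08, adjusted p = 0.196 from limma). The first of these was 0.10 within the first title ending and the second -0.42. Among the laminin chains of vessels and of the general basement membrane, Lamb1 differed by -0.68, as given above. The others were Lama4 at -0.12 (interval -0.63 to 0.39), Lamb2 at -0.34 (interval -0.91 to 0.22) and the shared gamma chain Lamc1 at -0.22 (interval -0.68 to 0.25). Lama1, an embryonic alpha chain, differed by -0.08 (interval -0.56 to 0.40). Second probe sets of Lama4 and Lamc1 had the other sign (0.22 and 0.02).

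The stretches before the starts of 4 members are printed because these genes had the smallest unadjusted p among the members listed in the RefSeq promoter table (GRCm38.p6), which holds 29 of the 49 genes. Each stretch is the 250 bases before the annotated start, 5′ to 3′ on the strand of the gene. Capitals mark an E-box CACCTG or its reverse complement CAGGTG, the element bound by repressors of the Snail type, searched on both strands. Lama2 is chr10:27616943-27617192 on the minus strand, Lamb1 chr12:31265043-31265292 on the plus strand, Lamb3 chr1:193301993-193302242 on the plus strand (the second of its starts, shown because it holds a match, while the window before the first start holds none) and Cldn3 chr5:134985964-134986213 on the plus strand.
Lama2: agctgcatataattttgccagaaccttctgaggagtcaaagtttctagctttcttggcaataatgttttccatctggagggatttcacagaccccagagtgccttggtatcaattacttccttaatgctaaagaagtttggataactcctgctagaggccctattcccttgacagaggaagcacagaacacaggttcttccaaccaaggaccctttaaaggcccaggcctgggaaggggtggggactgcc
Lamb1: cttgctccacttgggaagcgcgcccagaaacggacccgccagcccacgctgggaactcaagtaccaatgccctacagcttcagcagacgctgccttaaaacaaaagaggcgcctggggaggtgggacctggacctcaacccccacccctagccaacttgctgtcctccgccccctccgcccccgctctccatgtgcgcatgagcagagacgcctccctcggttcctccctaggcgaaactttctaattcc
Lamb3: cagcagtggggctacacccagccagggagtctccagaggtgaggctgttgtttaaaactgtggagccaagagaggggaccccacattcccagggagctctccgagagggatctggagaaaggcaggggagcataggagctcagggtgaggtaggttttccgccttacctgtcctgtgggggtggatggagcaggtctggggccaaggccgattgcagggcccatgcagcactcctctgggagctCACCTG
Cldn3: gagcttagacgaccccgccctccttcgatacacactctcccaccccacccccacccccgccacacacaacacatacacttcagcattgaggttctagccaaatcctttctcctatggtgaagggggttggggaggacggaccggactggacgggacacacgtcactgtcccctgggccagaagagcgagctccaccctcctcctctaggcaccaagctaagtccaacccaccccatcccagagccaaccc
Of the stretches printed, that of Lamb3 holds a match, directly before its start. Over the families 7 of 32 such windows (21.9%) hold one, beside 17.2% of all 32851 windows. The GC content is 47.2% for Lama2, 62.0% for Lamb1, 61.2% for Lamb3 and 60.8% for Cldn3, beside a median of 52.4% over all windows. A match describes the letters only.

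Among the claudins, Cldn8, which tightens the paracellular barrier of tubular and ductal epithelia, lay at 2.46, 3.47, 2.46, 2.42 and 2.33 in PN1a. In PN1b it ran from 2.52 to 4.83 (median 4.28). PN1b 1 to 4 were above every PN1a sample, while PN1b 5 and PN1b 6 (2.52 and 3.16) lay below PN1a 2 alone. The difference was -1.35 (SE 0.41, interval -2.23 to -0.46, adjusted p = 0.0985 from limma). It was -1.57 without PN1a 1 and PN1a 2 but -0.21 within the first title ending, and it passed in limma only without PN1b 5 (adjusted p = 0.0232).

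Cldn3, a claudin of simple epithelia, had probe sets that differed. The brighter one lay at 5.32, 6.93, 5.86, 6.72 and 4.99 in PN1a and at 5.45 to 7.21 in PN1b (median 6.50), which overlap, and gave -0.51 (interval -1.36 to 0.33). The other lay at 2.36, 4.64, 4.41, 5.01 and 4.59 in PN1a and at 5.22 to 5.62 in PN1b (median 5.32), with every PN1a sample below every PN1b sample. Its difference was -1.19 (interval -2.01 to -0.37, adjusted p = 0.110 from limma). It was -1.26 within the first title ending and -0.72 without PN1a 1 and PN1a 2. The suffix of this probe set (_f_) marks probes shared within a gene family, so it may also read related genes, and 13 of the 73 member probe sets carry it.

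Cldn1, a claudin of epithelial barriers, had the lowest deposited value in PN1a 1 and lay at 1.48, 3.86, 4.36 and 2.85 in the other PN1a samples. In PN1b it ran from 2.92 to 4.87 (median 4.03). PN1a 3 and PN1a 4 lay in the PN1b range. The difference of -1.45 (interval -2.87 to -0.04, adjusted p = 0.251 from limma) was -0.27 without PN1a 1 and PN1a 2, and a second probe set went from -1.03 to -0.43.

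Cldn4, a claudin of luminal epithelium, ranged more widely within PN1a than between the groups, with 3.45, 5.12, 6.89, 8.32 and 6.18 in PN1a and 6.57 to 7.67 in PN1b (median 7.32). PN1a 4 was the highest of all 11 samples and PN1a 1 the lowest. Its difference was -1.16 (interval -2.56 to 0.23), and -0.02 without PN1a 1 and PN1a 2. Cldn7, found along the lateral membrane of epithelial cells, lay at 4.03, 6.39, 6.03, 6.23 and 5.60 in PN1a and at 5.21 to 7.38 in PN1b (median 6.60). The difference was -0.87 (interval -1.84 to 0.10), and -0.08 within the first title ending.

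Cldn5, the claudin of endothelium, differed by -0.67 (interval -2.09 to 0.74) and turned to 0.47 without PN1a 1 and PN1a 2. Cldn11, Cldn2 and Cldn6 gave -0.50, -0.28 and -0.12, and all 3 means lay below the overall median level of 3.17. For Cldn2, PN1a 1 and PN1b 6 held the lowest deposited value.

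**Figure D2:**
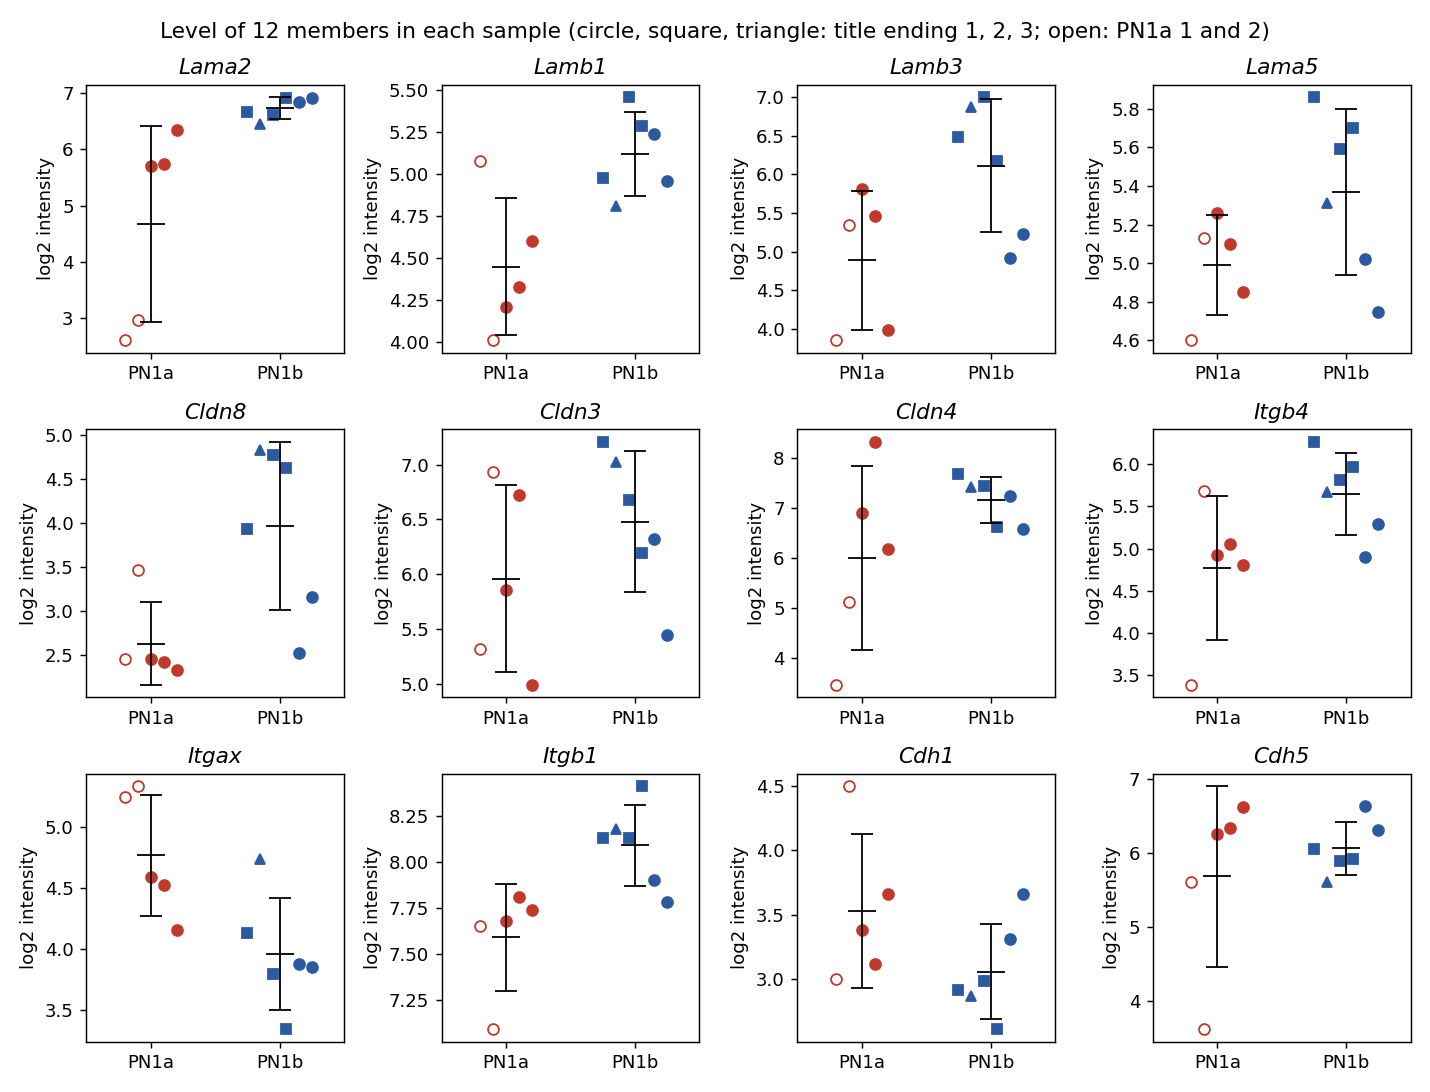
Log2 intensity (vertical axis, a scale per panel) of 12 members in each PN1a (red) and PN1b (blue) sample, with mean and SD as bars and the title endings as symbols. For Lama2 no PN1a sample reaches the PN1b range of 6.45 to 6.91. For Cldn8 and Lamb3 the PN1b samples of the first ending (circles) lie within the PN1a range. For Cldn8 the top of that range is PN1a 2 alone.

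Of the integrin chains that take part in laminin binding, Itgb4 and Itgb1 reached an unadjusted p under 0.05 in limma, both lower in PN1a. Itgb4, the beta chain that links hemidesmosomes to keratin filaments, lay at 3.38, 5.68, 4.92, 5.06 and 4.80 in PN1a and at 4.90 to 6.27 in PN1b (median 5.74). The groups overlapped, and PN1a 1 was the lowest sample. The difference was -0.88 (SE 0.36, interval -1.66 to -0.10, adjusted p = 0.206 from limma), with -0.33 within the first title ending and -0.73 without PN1a 1 and PN1a 2.

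Its partner Itga6 differed by -0.21 (interval -1.0 to 0.57) and had the other sign without PN1a 1 and PN1a 2 (0.31). Itgb1, the beta chain of most matrix receptors, lay at 7.65, 7.09, 7.68, 7.81 and 7.74 in PN1a and at 7.78 to 8.41 in PN1b (median 8.13). The groups met at the PN1b minimum, which lay below PN1a 4 alone. The difference was -0.49 (SE 0.19, interval -0.90 to -0.09, adjusted p = 0.173 from limma), -0.25 within the first ending and -0.37 in a second probe set. Itga3, a further laminin receptor chain, gave 0.28 (interval -0.26 to 0.82), and Itga7, the laminin receptor chain of muscle, -0.07 (interval -0.52 to 0.38) with 0.29 and -0.57 in the other probe sets.

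Receptor chains for collagen, fibronectin and vitronectin did not pass either. Itga2, a collagen receptor chain, differed by 0.01 (interval -0.56 to 0.59), and Itga5, the fibronectin receptor chain, by 0.11 (interval -0.72 to 0.94). Itgav, which pairs with several beta chains, gave -0.26 (interval -0.80 to 0.28) and 0.52 and 0.25 in further probe sets. Of its partners, Itgb3 gave 0.24 (interval -0.41 to 0.89) and Itgb5 0.37 (interval -0.56 to 1.30). Itgb5 went from 0.97 within the first title ending to -0.24 without PN1a 1 and PN1a 2. Itga8, another receptor chain for matrix ligands, gave -0.35 (interval -1.32 to 0.62) and 0.25 in a second probe set.

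Among the integrins of leukocytes, Itgax (CD11c), a chain of dendritic cells and macrophages, lay at 5.25, 5.34, 4.59, 4.53 and 4.16 in PN1a and at 3.34 to 4.74 in PN1b (median 3.86). PN1a 1 and PN1a 2 were above all PN1b samples, and PN1b 2 was the one PN1b sample to reach the levels of PN1a 3 and PN1a 4. The difference was 0.82 (SE 0.28, interval 0.22 to 1.41, adjusted p = 0.129 from limma), 0.91 within the first title ending and 0.47 without PN1a 1 and PN1a 2.

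Itgam (CD11b), a chain of macrophages and granulocytes, lay at 2.19, 2.37, 2.06, 2.23 and 0.66 in PN1a and at 0.18 to 1.47 in PN1b (median 1.42). All PN1a samples except PN1a 5 were above the PN1b range. The difference was 0.79 (interval 0.06 to 1.51, adjusted p = 0.226 from limma). Their shared beta chain Itgb2 gave 0.66 (interval -0.24 to 1.57), and the lymphocyte chain Itgal gave 0.25 (interval -0.22 to 0.73). The means of Itgam, Itgb2 and Itgal lay below the overall median level of 3.17, and PN1b 3 held the lowest deposited value for Itgb2. With log2(value + 16) the differences of Itgam and Itgb2 were 0.13 and 0.10.

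Itga4, a chain of lymphocytes and monocytes, gave 0.28 (interval -0.23 to 0.79), with 0.60 (interval 0.15 to 1.06, adjusted p = 0.139 from limma) and 0.20 in further probe sets. All Itga4 probe sets had means below the overall median level, and the 0.60 became 0.07 with log2(value + 16). The Itga4 partner Itgb7, of gut-homing lymphocytes, gave -0.10 (interval -0.48 to 0.29) and 0.51 in a second probe set, and Itgae, of intraepithelial T cells, gave -0.13 (interval -0.99 to 0.72).

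Of 12 macrophage markers 4 rose in PN1a (Aif1, C1qb, Cd68 and Tyrobp), all 12 lay above 0, and the median difference was 1.24. Further probe sets of C1qb and Cd68, with means below the overall median level, gave 0.10 and 0.04 and were not called. The call of Aif1 held with any single sample left out, while those of C1qb, Cd68 and Tyrobp were each lost in 7 or more of the 11 cases. None of the 4 was called within the first title ending, where Aif1 was at 1.20 (adjusted p = 0.507 from limma) and Tyrobp went from 1.76 to 0.85, or with the ending as a fixed block. The list averaged 0.11 to 1.56 in single PN1a samples and -1.51 to -0.02 in PN1b samples, each relative to the mean over all samples. Itgam, Itgax and Itgb2 are expressed by macrophages themselves, and the part of the macrophages in their values was not tested. Of 16 T, NK and B cell markers only Pou2af1, a B cell coactivator, was called, and it fell by 1.86 (median of the list -0.40). The called probe set had a mean below the overall median level, and its difference was -0.54 with log2(value + 16). A second probe set of Pou2af1 gave -0.17 and was not called.

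No cadherin was called. Cdh1 (E-cadherin), the cadherin of epithelial adherens junctions, lay at 3.0, 4.50, 3.38, 3.12 and 3.66 in PN1a and at 2.61 to 3.66 in PN1b (median 2.96). The groups overlapped, with PN1a 2 alone above the PN1b range, and the difference was 0.47 (interval -0.13 to 1.07, adjusted p = 0.388 from limma). Within the first title ending the difference was 0.05.

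Cdh3 (P-cadherin), of myoepithelial cells, gave -0.27 (interval -0.73 to 0.18), with -0.20 in its second probe set and 0.05 for the first within the first title ending. Cdh2 (N-cadherin), of mesenchymal and neural cells, gave 0.86 (interval -0.22 to 1.95), and this rested on PN1a 1, which lay at 3.90 while all others lay between 0.32 and 2.16. Without PN1a 1 and PN1a 2 it was 0.16. Cdh5 (VE-cadherin), of endothelium, lay at 5.60, 3.61, 6.25, 6.33 and 6.62 in PN1a and at 5.61 to 6.63 in PN1b, with PN1a 2 far below the others. Its difference of -0.38 (interval -1.34 to 0.58) became 0.34 without PN1a 1 and PN1a 2.

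Cdh11, a cadherin of fibroblasts, gave -0.10 (interval -0.56 to 0.36), Cdh13, which lacks a cytoplasmic tail, 0.04 (interval -0.32 to 0.39), and Cdh16, of kidney epithelium, 0.16 (interval -0.54 to 0.86). The remaining members Cdh6, Cdh8, Cdh9, Cdh10 and Cdh15 lay between -0.41 and 0.41. Cdh15, a muscle cadherin, had the lowest of these and lay at -0.84 without PN1a 1 and PN1a 2 (adjusted p = 0.0842 from limma), while its second probe set gave 0.48 over all samples. Cdh4 had 3 probe sets of differing sign, at -0.11, -0.85 (adjusted p = 0.173 from limma, 0.0561 to 0.308 with each sample left out) and 0.71 (adjusted p = 0.244). In 13 of the 17 cadherin probe sets the mean was below the overall median level of 3.17, as it was for 6284 of all 12422 probe sets. Of the 13 cadherin genes 8 lie on chromosome 8.

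Of the 20 member genes with several probe sets, 12 had 1 sign in all of them and 8 did not (Itga7, Itga8, Itgav, Itgb7, Lama4, Lamc1, Cdh4 and Cdh15). In 39 of 73 member probe sets the mean was below the overall median level of 3.17, and 7 held a value at the lowest of the table.

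Part of the low values of laminins and claudins lay in single samples. The mean of the 9 laminin genes after subtracting the average over samples was -0.96, -0.66, 0.15, -0.03 and -0.23 in PN1a and 0.02 to 0.58 in PN1b. That of the 9 claudin genes was -1.47, -0.55, 0.03, 0.24 and -0.35 in PN1a and -0.39 to 0.61 in PN1b. PN1a 1 was the lowest of the 11 samples, ties included, in 8 of 14 laminin and 6 of 12 claudin probe sets. Integrin means stayed between -0.24 and 0.25 and cadherin means between -0.28 and 0.33.

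Marker means moved in the same samples. The basal and myoepithelial list was at -0.91 and -0.69 in PN1a 1 and PN1a 2, between -0.22 and 0.08 in the other PN1a samples, at 0.41 to 0.78 in PN1b 1 to 4 and at -0.32 and -0.12 in PN1b 5 and PN1b 6. Of its 9 genes 8 were lower in PN1a and Trp63, the p63 factor of basal cells, fell by 1.55 (adjusted p = 0.0262 from limma, median of the list -0.52). Without PN1a 1 and PN1a 2 Trp63 stayed called (-1.48, adjusted p = 0.0157 from limma) and the median of the list was -0.53. The Trp63 call was lost when PN1a 4, PN1b 1, PN1b 3 or PN1b 4 was left out (highest adjusted p = 0.0687 from limma). It was also lost within the first title ending (-1.24, adjusted p = 0.676 from limma) or with the ending as a fixed block (adjusted p = 0.453 from limma). The luminal list was at -1.09 in PN1a 1 and -0.35 in PN1a 2, but at 0.59 to 0.71 in the other PN1a samples and -0.22 to 0.15 in PN1b, and none of 11 genes was called (median -0.18, and 0.13 without PN1a 1 and PN1a 2). Gata3, a factor of luminal cells, had the smallest adjusted p at 1.44 (adjusted p = 0.0561 from limma). It was called with each sample centred on its median (adjusted p = 0.0439 from limma), without PN1a 2 (1.84, adjusted p = 0.0021 from limma) and without PN1a 1 and PN1a 2 (2.08, adjusted p = 0.000301 from limma). Gata3 was not called within the first title ending (1.61, adjusted p = 0.668 from limma) or with the ending as a fixed block (adjusted p = 0.422 from limma).

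Endothelial markers were lowest in PN1a 2 (-1.48) and next in PN1a 1 (-0.50), with none of 9 called (median -0.38). The smallest adjusted p among them was that of Sox17, an endothelial factor, at -1.33 (adjusted p = 0.0641 from limma). It was called without PN1a 5 (-1.50, adjusted p = 0.0476 from limma) and lay at -0.71 without PN1a 1 and PN1a 2. Sox17 was not called within the first title ending (-1.52, adjusted p = 0.672 from limma) or with the ending as a fixed block (adjusted p = 0.428 from limma). Fibroblast markers were at -1.84 in PN1a 2 and -0.28 in PN1a 1, with none of 8 called (median -0.16). Lum (lumican), a matrix proteoglycan, was lowest in adjusted p at -1.79 (adjusted p = 0.271 from limma), and -0.03 without PN1a 1 and PN1a 2. None of 6 adipocyte markers (median 0.08) and none of 7 skeletal muscle markers (median -0.01) was called. The smallest adjusted p values there were those of Pparg, the adipocyte factor, at -0.51 (adjusted p = 0.543 from limma), and of the troponin Tnnt3 at 0.60 (adjusted p = 0.255 from limma). The part of these cells in the values of the 4 families was not tested.

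**Figure D3:**
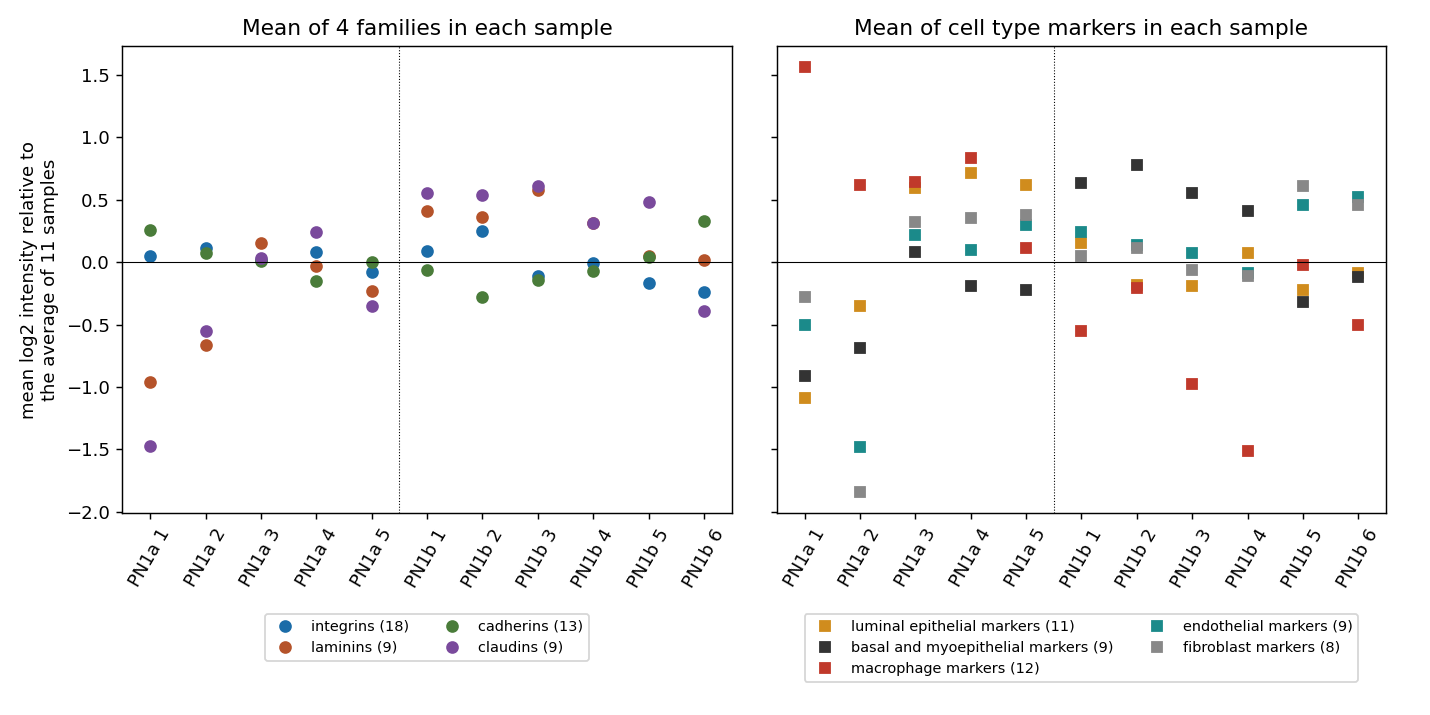
Mean log2 intensity relative to the average of the 11 samples (vertical axis) in each sample, for the genes of the 4 families (left) and for lists of cell type markers (right), with the number of genes in brackets. Laminins (-0.96) and claudins (-1.47) were lowest in PN1a 1, the sample in which luminal and basal markers were lowest too.

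The tendencies of laminins and claudins were smaller in parts of the samples. Within the first title ending 9 of 14 laminin probe sets were lower in PN1a (median -0.20) and 9 of 12 claudin probe sets (median -0.59), with 13 of 30 integrin (median 0.12) and 10 of 17 cadherin probe sets (median -0.19). Without PN1a 1 and PN1a 2 it was 10 of 14 laminin (median -0.24) and 11 of 12 claudin probe sets (median -0.35), with medians of 0.11 for integrins and 0.16 for cadherins.

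**Figure D4:**
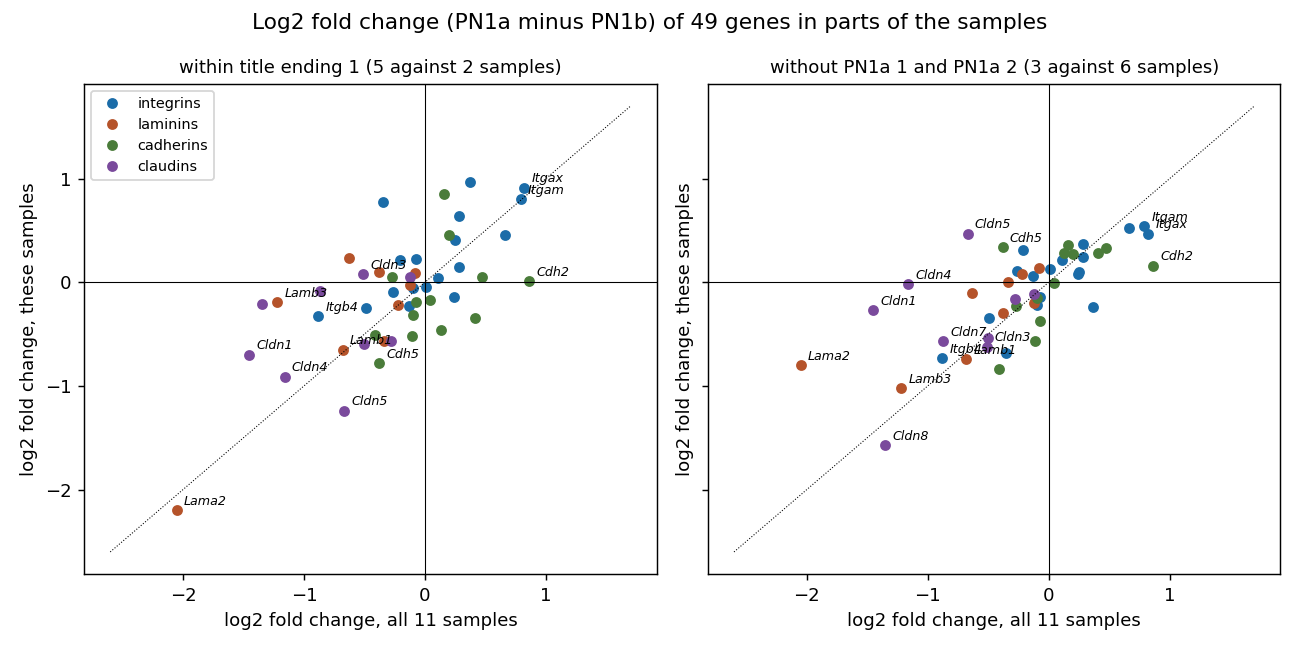
Log2 fold change of the 49 member genes in parts of the samples (vertical axis) against that in all 11 samples (horizontal axis), with the dotted line where both are equal. Lama2 is at -2.20 within the first title ending and at -0.80 without PN1a 1 and PN1a 2, while Cldn8 is at -0.21 and -1.57.

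Among partner genes of the junctions and the matrix (lists of 16, 10, 22, 17 and 13 measured genes) 4 genes were called higher and 3 lower. Over all 8251 genes, with 1 probe set each, 69 were called higher and 152 lower. Whether partners and families differ in this was not tested, and the lists were chosen with earlier results of these data known. Of 16 measured adherens junction and desmosome partners (of 19 listed) only Perp was called, a desmosome protein that is also a p53 target (median of the list -0.39). It lay at 4.99, 6.16, 6.92, 6.21 and 6.69 in PN1a and at 7.16 to 7.91 in PN1b (median 7.58), with no overlap, and fell by 1.39 (SE 0.30, adjusted p = 0.031 from limma). This call was lost without PN1a 1 and PN1a 2 (-0.97, adjusted p = 0.0693 from limma) and with any one of PN1a 2, PN1a 4 and PN1b 1 to 4 left out (highest adjusted p = 0.0794).

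Of 10 measured tight junction partners (of 20) none was called (median -0.20). The smallest adjusted p belonged to Ocln (occludin), a membrane protein of the seal, at -1.25 (adjusted p = 0.109 from limma). Of 22 integrin adaptors and signaling genes (of 28), only Cd81, a tetraspanin that associates with integrins, was called (median 0.01). It lay at 5.64, 5.24, 6.11, 6.22 and 6.27 in PN1a and at 7.25 to 7.75 in PN1b (median 7.46) and fell by 1.61 (SE 0.22, adjusted p = 0.00155 from limma). This call held with any single sample left out and without PN1a 1 and PN1a 2 (-1.30).

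Of 17 basement membrane and laminin receptor genes (of 21), Plec (plectin), which ties Itgb4 to keratin, was the called one (median -0.06). It lay at 5.47, 6.11, 5.89, 5.64 and 5.37 in PN1a and at 4.43 to 5.00 in PN1b (median 4.69) and rose by 0.98 (adjusted p = 0.0163 from limma, SE 0.19), while Itgb4 itself lay at -0.88. The Plec call held narrowly with any single sample left out (highest adjusted p = 0.0496 from limma). Without PN1a 1 and PN1a 2 it also held narrowly (0.92, adjusted p = 0.0497 from limma).

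Of 13 integrin ligands (of 15), 3 rose and 1 fell (median -0.24). Tnc (tenascin C), a matrix protein of remodelling stroma, lay at 8.46, 7.40, 5.77, 5.61 and 5.60 in PN1a and at 3.66 to 4.74 in PN1b (median 4.38). It was highest in PN1a 1 and PN1a 2, did not overlap, and rose by 2.32 (interval 1.28 to 3.36, adjusted p = 0.0259 from limma) and by 2.42 in a second probe set. Without PN1a 1 and PN1a 2 it stayed called at 1.41, but the call was lost when PN1a 2, PN1b 1, PN1b 3 or PN1b 4 alone was left out (highest adjusted p = 0.0652 from limma).

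The fibrinogen chains Fgb and Fgg also rose. Fgb lay at 4.66, 0.00, 3.86, 2.22 and 5.63 in PN1a and at 0.00 to 0.53 in PN1b, and Fgg lay at 2.15 to 3.12 in PN1a and 0.00 to 2.04 in PN1b, with adjusted p = 0.0494 and adjusted p = 0.0392 from limma. Since Fgb holds 4 values at the lowest of the table, its difference depends on that value and is not given. Fgg holds 1 such value, in PN1b 1, on which its difference depends in part. Madcam1, a ligand of the Itga4 and Itgb7 pair on vessels, fell by 0.82 (adjusted p = 0.0386 from limma) in 1 probe set while another gave 0.31. The called probe sets of Fgb, Fgg and Madcam1 had means below the overall median level. With log2(value + 16) the differences of Fgg and Madcam1 were 0.27 and -0.25. Without PN1a 1 and PN1a 2 the differences of Fgg and Madcam1 stayed close in size (from 1.37 to 1.30 for Fgg and from -0.82 to -0.85 for Madcam1), but neither was called (adjusted p = 0.135 and adjusted p = 0.0719 from limma). Fgb stayed called without PN1a 1 and PN1a 2 (adjusted p = 0.00583 from limma). The Fgb call was lost with any single sample other than PN1a 2 left out (highest adjusted p = 0.108 from limma). The Fgg call was lost without any one of PN1a 1, 2, 3 and 5 and PN1b 2, 3 and 4 (highest adjusted p = 0.086 from limma), and the Madcam1 call without any one of PN1a 1, 3 and 5 and PN1b 1, 2, 3, 4 and 6 (highest adjusted p = 0.0947 from limma).

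None of these 7 partners was called within the first title ending or with the ending as a fixed block, where their signs were unchanged. There Cd81 was at -1.41 (adjusted p = 0.409 from limma), Plec at 0.76 (adjusted p = 0.668), Perp at -1.14 (adjusted p = 0.676) and Tnc at 2.37 (adjusted p = 0.633).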

How the data were processed

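The authors processed the MG_U74Av2 arrays of 5 PN1a and 6 PN1b samples in dChip (PM-MM model, quantile normalization; version not given in the sources used here) and deposited a table of linear intensity values. Mismatch signals are subtracted in this model, so values of dim probe sets are uncertain. The deposited values ran from 1 to 1938, 0.817% lay at the lowest value, and each log2 value was a multiple of 0.01. Scanner files were not used here. Precision is limited by the 11 arrays.

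Log2 was taken with no pseudocount, and 66 array controls of 12488 probe sets were left out. The groups were compared by limma 3.58.1 in R 4.3.3 (two-sided lmFit and eBayes without covariates, Benjamini-Hochberg over 12422 probe sets). Of these, 10833 carry 1 symbol in the array annotation, 396 several and 1193 none. Updating symbols by gene identifier (10817 matched) changed 0.

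The members and lists were chosen with earlier results of these data known, and families and lists are described by counts and medians without a test of their own. Named genes are, in each family and direction, the member with the smallest adjusted p, the members of roles known in epithelium, vessels and leukocytes, and of each list the called genes or the one with the smallest adjusted p. Cldn2, Cldn6, Cldn11, Itga7, Itga8 and some cadherins lie outside that rule and were chosen after their values were seen. Where a gene has several probe sets, the brightest on average stands for it. Lists use 1 probe set per gene.

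Alternatives were the methods' t-test, title ending as a fixed or random block or within the first ending, repeated quantile normalization, centring, log2(value + 16), probe sets above the median only, no fold threshold or 2-fold, averaged probe sets of a gene, trended robust eBayes, PN1a 1 and PN1a 2 left out, and each sample left out. Symbols as given in the annotation yield the same members. Nothing says whether samples of a group come from separate mice, so the spread behind the p-values may be technical. Identical values made up at most 1.24% of any pair of samples, so all were kept as replicates. The fit was also tested on simulated data. Python 3.11.15 and matplotlib 3.10.9 drew the figures.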

Additional observations from a re-analysis of the deposited data

Results flagged for a closer look

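In 10 of 98 groups of member values (1 probe set per gene, 5 PN1a or 6 PN1b samples) the highest or lowest sample lay apart from the others, with a gap over the range above 0.710 for PN1a or 0.625 for PN1b, and chance gives about 1 in 20 groups. PN1a 2 was the sample apart for Cldn8 (0.886, at 3.47 above 2.33 to 2.46), Cdh16 (0.875, at 1.63 below 2.54 to 2.67), Cdh9 (0.780, at 0.54 below 1.46 to 1.72) and Itgb1 (0.778, at 7.09 below 7.65 to 7.81). PN1a 1 was apart for Lama1 (0.728, at 4.08 below 4.99 to 5.33). PN1a 5 was apart for Itgam (0.819, at 0.66 below 2.06 to 2.37) and PN1a 3 for Cdh8 (0.806, at 2.20 above 1.17 to 1.37).

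In PN1b, PN1b 6 was apart for Itgb3 (0.744, at 2.72 above 1.16 to 1.56), and PN1b 5 for Cdh16 (0.651, at 0.94 below 2.15 to 2.80) and for Cldn2 (0.643, at 1.71 above 0.00 to 0.61).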

How the results depend on the processing

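No member was called in limma under any alternative except Lama2 without PN1a 5 and Cldn8 without PN1b 5, so the count of called members, all lower in PN1a, ran from 0 to 1 with each sample left out, and no member was called higher. At an unadjusted p under 0.05 in limma 16 members passed with all samples, 4 with the title ending as a fixed block and 2 within the first ending. The methods' t-test at its unadjusted threshold called 1 member (Lamb1, lower), and 0 after Benjamini-Hochberg adjustment. The sign held under every alternative that gave a value for 21 of 49 member genes (8 of 18 integrins, 3 of 9 laminins, 4 of 13 cadherins and 6 of 9 claudins). Other fold thresholds and the t-test leave the estimate as it is, and genes below the median level have no value under that filter.

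Over all probe sets, against 108 higher and 201 lower, the t-test called 271 and 442 unadjusted and 50 and 95 adjusted, the title ending 12 and 19 as a fixed block, 58 and 104 as a random block, and 6 and 12 within the first ending. With log2(value + 16) 65 were called higher, above the median level 303 lower, and without PN1a 1 and PN1a 2 82 lower. With each sample left out, 44 (without PN1b 3) to 182 (without PN1b 5) were called higher and 79 (without PN1b 1) to 377 (without PN1b 5) lower. The causes were not tested. The title ending divides the samples unequally, so within the first ending PN1b has 2 samples. No paired analysis was possible because the replicate numbers only follow the order of the samples and pair none.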
